A study of Mus musculus with 4 samples.

Results

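Neutrophils and their precursors were taken from droplet RNA profiles of CD45+ liver cells by the calprotectin genes S100a8 and S100a9. A kept cell had 600 to 6000 detected genes and at most 5% of its unique molecular identifiers (UMIs) in mitochondrial genes. A member had at least 100 UMIs of S100a8 and S100a9 together and 0 UMIs of the T cell genes Cd3d, Cd3e and Cd3g. The rule took 196 of 36286 kept cells (0.540%). Members were thus chosen by measured S100a8, S100a9 and Cd3 values, so levels of these genes are a description and no finding.

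All mice were female C57BL/6, and each of 4 libraries held the sorted liver leukocytes of 1 group. The reference group was untreated wild type (WT) of about 8 weeks, here young WT. The other groups received diethylnitrosamine (DEN, 25 mg/kg into the peritoneum) at day 14, were weaned at day 21 onto a choline-deficient diet with 60% fat (CDHFD), and were taken at 36 weeks. They were WT (here treated WT), miR-146a-/-, and miR-146a-/- Ccl5-/- double knockouts (DKO). With 1 library per group there was no replicate check, the number of mice behind a library is not given in the sources used here, and every interval below (95%) covers counting error only. Age and treatment cannot be told apart in treated against young WT.

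Neutrophils mature in the bone marrow, and their granules are filled in the order in which the granule proteins are made. Promyelocytes make primary granule proteases such as neutrophil elastase and myeloperoxidase. Myelocytes and metamyelocytes then make secondary granule proteins (lactoferrin, cathelicidin, neutrophilic granule protein), driven by the factor C/EBP epsilon, and lose the capacity to divide. Band and segmented cells make gelatinase granule proteins, chemokine receptors and, after activation, cytokines such as interleukin 1 beta. Granule genes are largely silent in mature cells, so transcripts of each granule class date a cell. miR-146a dampens signalling of Toll-like and interleukin 1 receptors by lowering TRAF6 and IRAK1, and mice without it are known for myeloid expansion with age. CCL5 is a chemokine made chiefly by T and NK cells.

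The miRNA removed in both knockout groups is shown because its loss sets both apart from the WT groups. Its RefSeq entry on GRCm38.p6 lies on the minus strand at chr11:43374435-43374456, and capitals mark the seed (bases 2 to 8), the stretch that pairs with targets.
mmu-miR-146a-5p: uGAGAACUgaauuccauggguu

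Ccl5 checked the labels, since the DKO mice lack this gene. Over all kept cells it stood at 6174 CPM (UMIs scaled to a common library total) in young WT, 12544 in treated WT, 12496 in miR-146a-/- and 65.4 in DKO cells. Only the DKO library was low, as its label states. In the members Ccl5 had 147, 15, 29 and 24 UMIs in that order of libraries. In young WT, 142 of the 147 lay in 1 member that also held 68 of the 70 UMIs of granzyme A (Gzma) and 32 of the 33 of Ms4a4b. Without the top Ccl5 member the log2 ratio of treated to young WT turned from -3.53 to 1.09. Among all barcodes, 763 were shared between pairs of libraries, and none of these pairs joined members. Over all pairs, 3 members of the first and 6 of the second library had a barcode seen in the other.

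The member label was checked against monocyte and macrophage genes only, so transcripts of dendritic or B cells did not enter this check. Of the 196 members 174 had more UMIs of 12 neutrophil genes than of 12 monocyte and macrophage genes. The other 22 were 0 in young WT, 2 in treated WT, 8 in miR-146a-/- and 12 in DKO. Below, these 22 are called monocyte-rich members, and they were kept in all counts unless stated otherwise. The 6 neutrophil markers of a short list (S100a8, S100a9, Ly6g, Ngp, Camp, Ltf) were all detected in 3 libraries. In treated WT 4 of the 6 were at 0, namely Ly6g, Ngp, Camp and Ltf, none of which the member rule used. Their summed level was 104067, 35951, 186228 and 136035 CPM over the 4 libraries, with S100a9 the most abundant in each. The neutrophil list summed to 27731 CPM in young WT, 7407 in treated WT, 64655 in miR-146a-/- and 48667 in DKO members. Retnlg led this list in the WT libraries and Ngp in the knockouts.

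Transcripts of other cell types were present in members. The monocyte and macrophage list stood at 465, 2358, 1239 and 1803 CPM, with 7, 12, 11 and 12 of its 12 genes detected. Its most abundant gene was Csf1r in young WT and Ms4a6c in the others, while genes at 0 included F13a1, Fn1, C1qa and C1qb in young WT and C1qc in miR-146a-/-. The dendritic cell list stood at 1220, 3936, 2233 and 3709 CPM, with Cd74 its most abundant gene and Siglech at 0 in each library. The natural killer cell list stood at 1290, 9.51, 32.4 and 161 CPM, with 70 of the 111 young WT UMIs from Gzma. Of 9 T cell genes, Cd3d, Cd3e and Cd3g were at 0 by the rule and the other 6 had 1, 1, 3 and 6 UMIs, and no member held a UMI of the 5 basophil and mast cell genes. The part of such transcripts in the results was not tested.

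Members were more frequent without miR-146a. They numbered 19 of 10283 kept cells in young WT (0.185%, 0.111 to 0.288), 15 of 8329 in treated WT (0.180%, 0.101 to 0.297), 75 of 7824 in miR-146a-/- (0.959%, 0.755 to 1.20) and 87 of 9850 in DKO (0.883%, 0.708 to 1.09). The miR-146a-/- share was 5.32 times that of treated WT (3.03 to 9.98), a difference of 0.778 percentage points (0.553 to 1.03). DKO differed from miR-146a-/- by -0.0753 points (-0.369 to 0.206), and treated from young WT by -0.00468 (-0.130 to 0.130). Thus the knockout intervals lay wholly above the WT intervals and overlapped each other.

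Near the limit of 100 S100a8 and S100a9 UMIs lay few miR-146a-/- cells and more of DKO. Just inside lay cells of 105, 106, 107, 115 and 118 UMIs and just outside cells of 99, 95, 94, 94 and 91. Between 100 and 199 UMIs were 8, 6, 4 and 12 members of the 4 libraries, and between 50 and 99 were 1, 7, 2 and 17 further cells. The median member had 240, 227, 1906 and 1264 UMIs of the pair, at a median total of 3982, 3636, 15858 and 16728 UMIs. Knockout members were therefore deeper as well as more numerous, which the stage ranges below had to respect.

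Each member was thinned at random to 1500 UMIs and placed on a maturation scale. The primary granule range had at least 5 UMIs of Mpo, Elane, Prtn3 and Ctsg together, the secondary granule range had at least 15 of Ltf, Camp and Ngp, and the late range took the rest. These are ranges of a score, not types. All WT and miR-146a-/- members reached this depth and 2 DKO members did not, which left 19, 15, 75 and 85.

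The secondary granule range was nearly empty in WT liver and held many knockout members. It took 1 of 19 young WT members (5.26%, 0.133 to 26.0), 0 of 15 treated WT members (3 counts would be 20%), 45 of 75 miR-146a-/- members (60.0%, 48.0 to 71.1) and 40 of 85 DKO members (47.1%, 36.1 to 58.2). Without thinning the counts were 1, 0, 46 and 40. The gap between miR-146a-/- and treated WT was 60.0 points (36.7 to 70.3), and that between DKO and miR-146a-/- was -12.9 points (-27.5 to 2.50). Few cells stood near the limit: 0, 0, 3 and 8 had 8 to 29 UMIs of the trio, while 17, 15, 20 and 38 had 0 and 1, 0, 40 and 29 had at least 50. So most members either lacked these transcripts or were rich in them, as the plot of single members by library shows.

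**Figure D1:**
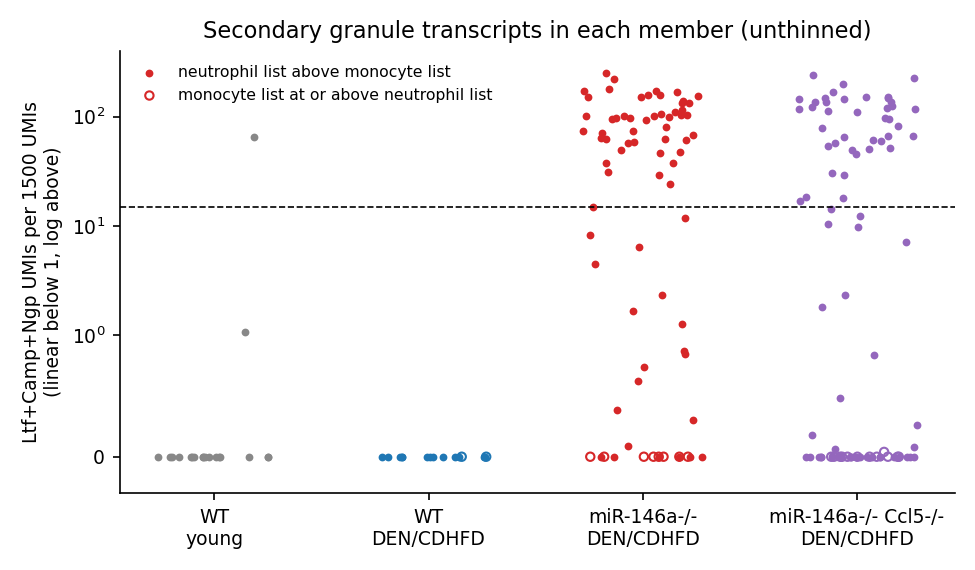
Ltf, Camp and Ngp UMIs per 1500 UMIs (axis linear below 1 and log above) in each member of the 4 libraries, unthinned, with the limit of 15 as a dashed line and monocyte-rich members as open circles. WT members lie at 0 or near 1 apart from 1 young WT cell, and knockout members spread from 0 to over 100.

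As a share of all kept cells the same ranges separated the increase. Secondary granule range members were 0.00972%, 0%, 0.575% (0.420 to 0.769) and 0.406% (0.290 to 0.553) of kept cells in young WT, treated WT, miR-146a-/- and DKO. The 0 in treated WT has an upper limit of 0.0443%. Late members with the neutrophil list above the monocyte list, called late neutrophils here, were 0.175%, 0.156%, 0.268% and 0.335%. For these the difference of miR-146a-/- from treated WT was 0.112 points (-0.0322 to 0.268), an interval that includes 0. Most of the rise in members thus lay in the secondary granule range. A smaller and less certain rise was seen in late neutrophils and in monocyte-rich members (0%, 0.0240%, 0.102% and 0.122%). Late neutrophils of at most 8000 UMIs numbered 17, 12, 9 and 15 in that order, and deeper ones 1, 1, 12 and 18. The rise in late neutrophils thus lay mainly in deeper cells. In miR-146a-/- and DKO these deeper cells held 7398 and 7906 CPM of the dendritic cell list. Whether they held a neutrophil with another cell was not tested.

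**Figure D2:**
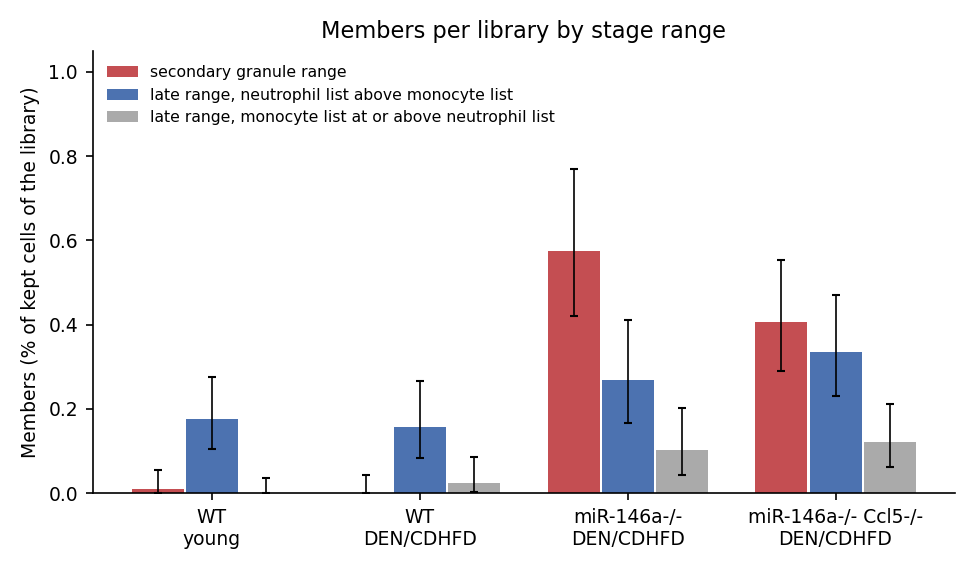
Members as a percentage of the kept cells of each library, as side-by-side bars for the secondary granule range, late neutrophils and monocyte-rich late members, with 95% counting intervals. The secondary granule range is the highest bar in both knockout libraries and close to 0 in WT liver.

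The primary granule range held 1 cell of 194, in miR-146a-/-. It had 31266 UMIs, with 997 of elastase (Elane), 765 of proteinase 3 (Prtn3), 609 of myeloperoxidase (Mpo) and 47 of cathepsin G (Ctsg). It also had 539 UMIs of Camp and 430 of Ngp but 0 of Ltf and 0 of Ly6g. It thus carried transcripts of primary and secondary granules together. This cell held 609 of the 610 Mpo UMIs and 997 of the 1003 Elane UMIs of its library, and the calls of lower Mpo, Elane and Prtn3 in DKO than in miR-146a-/- rested on it. Leaving it out turned the DKO to miR-146a-/- log2 ratio of Mpo from -5.31 to 3.38, that of Elane from -7.14 to 0.10 and that of Prtn3 from -3.52 to 0.24. The turned Mpo value rested on single cells too, since 18 DKO UMIs of Mpo lay in 1 secondary range member. The remaining Prtn3 transcripts were spread over 10 miR-146a-/- members and 17 DKO members. Against treated WT, with 0 UMIs, the Prtn3 log2 ratio of miR-146a-/- went from 9.81 to 6.03 without this cell. Both values depend on the counts added to 0 and are no measured size. Of the other Prtn3 UMIs of miR-146a-/- 41 lay in 5 of 8 monocyte-rich members and 0 in the 21 late neutrophils. The only secondary range member of young WT had 360 UMIs of Ngp, 107 of Camp, 24 of Ltf, 16 of Ly6g and 416 of Retnlg, with 0 of Cebpe and 0 of Il1b.

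The secondary granule genes that define the range lie near each other on mouse chromosome 9. Camp (cathelicidin, an antimicrobial peptide precursor), Ngp (a cystatin-like granule protein) and Ltf (lactoferrin, which binds iron) follow each other with gaps of 570 kb between Camp and Ngp and 596 kb between Ngp and Ltf. S100a8 and S100a9, by comparison, stand 22.6 kb apart on chromosome 3. The stretches just before the outermost annotated starts of the 3 genes are shown because the stage ranges turn on these genes. They are RefSeq sequences on GRCm38.p6: Camp chr9:109849618-109849706 on the minus strand, Ngp chr9:110419558-110419746 and Ltf chr9:111019042-111019270 on the plus strand. Capitals mark letters of a motif of the C/EBP type, TTGCNNAA or TTNNGCAA, searched on both strands.
Camp: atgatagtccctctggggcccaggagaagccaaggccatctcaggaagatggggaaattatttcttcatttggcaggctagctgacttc
Ngp: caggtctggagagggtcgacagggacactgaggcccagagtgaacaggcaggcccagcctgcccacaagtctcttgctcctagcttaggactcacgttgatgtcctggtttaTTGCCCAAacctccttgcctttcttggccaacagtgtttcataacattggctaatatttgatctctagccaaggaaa
Ltf: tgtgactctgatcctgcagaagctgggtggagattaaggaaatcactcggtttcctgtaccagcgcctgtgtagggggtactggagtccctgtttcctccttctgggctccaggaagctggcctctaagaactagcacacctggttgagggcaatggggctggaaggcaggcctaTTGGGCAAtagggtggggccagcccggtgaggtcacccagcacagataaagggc
In the 300-base windows around the RefSeq start sites, which reach beyond these stretches, the motif occurred at 2 places for Ngp, 1 for Ltf and 0 for Camp. Of the 2 Ngp matches 1 lies in the stretch shown. It is common: 10.8% of 32851 promoter windows hold it. A match is a description of letters and says nothing of binding.

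These 3 genes set the range, so their levels over all members followed the shares of the stages. Ngp stood at 4219, 0, 23024 and 16601 CPM over all members of young WT, treated WT, miR-146a-/- and DKO. Camp stood at 1244, 0, 15674 and 12989 CPM, and Ltf at 279, 0, 7383 and 5076. In the WT libraries nearly all of these UMIs came from the 1 young cell. In miR-146a-/- they were spread over 60, 54 and 49 members for Ngp, Camp and Ltf, and in DKO over 53, 48 and 46. Against treated WT, miR-146a-/- members held at least 807-fold more Ngp, 549-fold more Camp and 259-fold more Ltf, with 3 counts in place of 0.

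Genes were then compared between stages within each knockout library, Ltf, Camp and Ngp of the rule included. A gene was called steady when it was at least 2-fold apart in the same direction in both libraries. Against late neutrophils, 52 of 1397 genes (3.72%) were steadily higher in the secondary granule range and 95 (6.8%) in the late range. Against all late members, monocyte-rich cells included, the counts were 72 (4.93%) and 134 (9.18%) of 1460. The values below are against late neutrophils.

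Secondary granule genes went together. Of 12 tested genes of the list, 9 were steadily higher in the secondary range, 3 of them by the rule, against 3.72% over all genes. The median log2 ratio was 2.63 against -0.32 over all genes tested. Lcn2 (lipocalin 2, which binds bacterial siderophores) was 5.09-fold higher in miR-146a-/- (4.69 to 5.53) and 6.45-fold in DKO (5.98 to 6.96). Chil3, a chitinase-like protein, was 15.1-fold (11.2 to 20.9) and 4.72-fold (4.13 to 5.41) higher. Cd177, a surface partner of proteinase 3, was 5.89-fold (4.38 to 8.10) and 9.16-fold (6.78 to 12.7) higher. Fcnb (ficolin B) had 88 against 1 UMI in miR-146a-/- and 129 against 5 in DKO, ratios of 24.2 (4.24 to 968) and 13.3 (5.56 to 41.7). In DKO 61 of the 129 lay in 1 member, and the log2 ratio of 3.65 went to 2.83 without it. Ly6g, the antigen used to sort mouse neutrophils, was 2.10-fold (1.63 to 2.76) and 6.99-fold (5.03 to 10.0) higher. The secondary range was thus a programme wider than its 3 defining genes.

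Among other genes higher in the secondary range, Cebpe (C/EBP epsilon, the factor of secondary granule genes) stood out by role. It was 14.5-fold higher in miR-146a-/- (6.61 to 39.9) and 16.8-fold in DKO (8.03 to 42.3). Orm1 (an acute-phase glycoprotein) had 90 and 102 UMIs there and 0 in late neutrophils of both libraries, a ratio of at least 8.26 and 17.5. It was tested only through the secondary range, so its call as higher was fixed by the filter. Serpinb1a, an inhibitor of neutrophil proteases, was 9.68-fold (5.71 to 17.8) and 11.6-fold (7.53 to 19.0) higher, and Lta4h (leukotriene A4 hydrolase) 12.0-fold (6.25 to 26.4) and 9.29-fold (5.93 to 15.4). In thinned cells Cebpe was seen in 18 of 45 and 14 of 40 secondary range members against 2 of 21 and 0 of 33 late neutrophils. Of 10 tested gelatinase granule genes 0 were steady in either direction, against 3.72% (secondary) and 6.8% (late) over all genes. A count of 0 of 10 is near these shares and is no result about this list. Against all late members 3 of 10 were higher in the secondary range, against 4.93% over all genes. Against late neutrophils Mmp8 (neutrophil collagenase) was 1.28-fold (1.09 to 1.52) and 2.29-fold (1.90 to 2.79) higher in the secondary range. Retnlg, resistin-like gamma, was 2.80-fold (2.67 to 2.94) and 1.46-fold (1.39 to 1.53) higher in late neutrophils.

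Transcripts of cycling cells were seen in some secondary range members. Mki67 and Top2a, made in cycling cells, had a UMI in 4 of 45 thinned miR-146a-/- and 5 of 40 DKO secondary range members, against 0 of 21 and 2 of 33 late neutrophils. Mki67 had 81 UMIs in the miR-146a-/- secondary range and 0 in late neutrophils (at least 7.43-fold), and 91 and 27 in DKO (1.74-fold, 1.12 to 2.78). Ube2c, a ubiquitin enzyme of mitosis, had 116 and 0 UMIs in miR-146a-/- (at least 10.6-fold) and 143 and 40 in DKO (1.84-fold, 1.29 to 2.69). Few cells bore these counts: 1 miR-146a-/- member held 46 of the 81 Mki67 UMIs and 1 held 76 of the 116 of Ube2c, and 1 DKO member held 61 of the 143 of Ube2c. Without these the log2 ratios in miR-146a-/- went from 6.70 to 5.53 for Mki67 and from 7.22 to 5.72 for Ube2c. With 0 UMIs in its late neutrophils, these values depend on the added counts and are no measured size. In DKO the log2 ratio of Ube2c went from 0.88 to 0.14. The thinned shares of Mki67 and Top2a had overlapping intervals (2.48 to 21.2% and 0 to 16.1% in miR-146a-/-). The whole cell cycle list was seen in 64.4% and 72.5% of secondary range members of miR-146a-/- and DKO, and in 72.2%, 61.5%, 57.1% and 57.6% of late neutrophils of the 4 libraries. It includes Hmgb2, which without thinning had a UMI in all 45 and 40 secondary range members, against 5 and 7 for Mki67. These shares are therefore no measure of cycling cells. By summed counts 0 of 3 tested cell cycle genes were steady, against 3.72% (secondary) and 6.8% (late) over all genes. Against all late members, monocyte-rich ones included, 3 of 3 were steadily higher in the secondary range, against 4.93% over all genes. This call thus turned on the late set. Of B cells 4.25% in miR-146a-/- and 6.37% in DKO held a UMI of Mki67, and whether members shared droplets with cycling cells was not tested.

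The late range was led by activation genes. Il1b, interleukin 1 beta, was 50.6-fold higher in late neutrophils than in secondary range members in miR-146a-/- (36.7 to 71.6) and 27.7-fold in DKO (21.3 to 36.5). Ptgs2, the inducible prostaglandin synthase, had 25 against 0 UMIs (at least 30.3-fold) and 50 against 1 (96.9-fold, 16.6 to 3903). In miR-146a-/- Ptgs2 was tested only through late neutrophils, so its direction there was fixed by the filter. In DKO 24 of the 50 Ptgs2 UMIs lay in 1 member, and the log2 ratio of -5.88 went to -4.96 without it. Cxcl2, a ligand of the receptor CXCR2, was 8.22-fold (7.15 to 9.47) and 5.99-fold (5.14 to 6.99) higher. The interferon-inducible membrane gene Ifitm1 was 56.5-fold (30.8 to 115) and 25.5-fold (16 to 43.1) higher, and Acod1, which makes itaconate, 12.9-fold (10.2 to 16.5) and 15.4-fold (10.9 to 22.5). Of the cytokine and chemokine list, 6 of 9 tested genes were steadily higher in late neutrophils and 0 in the secondary range, against 6.8% and 3.72% over all genes. Transcripts of other cells differed too. The dendritic cell list stood at 5727 and 6662 CPM in late neutrophils of miR-146a-/- and DKO against 1111 and 1984 in secondary range members, and the monocyte and macrophage list at 1344 and 1925 against 699 and 1063. Their part in these ratios was not tested.

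Some receptor, factor and survival genes were also higher in late neutrophils. The receptor of granulocyte colony-stimulating factor, Csf3r, was 4.66-fold (3.55 to 6.12) and 4.58-fold (3.58 to 5.89) higher in late neutrophils. Of 20 receptor and trafficking genes 7 were steadily higher there and 1 in the secondary range, against 6.8% and 3.72% over all genes. The survival gene Mcl1 was 3.05-fold (2.58 to 3.59) and 2.15-fold (1.86 to 2.48) higher, with 5 of 9 survival genes steadily higher against 6.8% over all genes. The stress factor genes Junb (3.29-fold, 2.85 to 3.78, and 3.0-fold, 2.67 to 3.38) and Cebpb (2.58-fold, 2.31 to 2.88, and 2.20-fold, 2.02 to 2.40) rose likewise. Nfkbia, which encodes the inhibitor of NF-kB, was 2.47-fold (2.12 to 2.87) and 2.42-fold (2.12 to 2.76) higher. The targets of miR-146a, Traf6 and Irak1, were too low for a call in either stage. Secondary granule genes were thus higher in 1 range and part of the cytokine, receptor and survival genes in the other. The scatter of stage ratios shows the knockout libraries side by side.

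**Figure D3:**
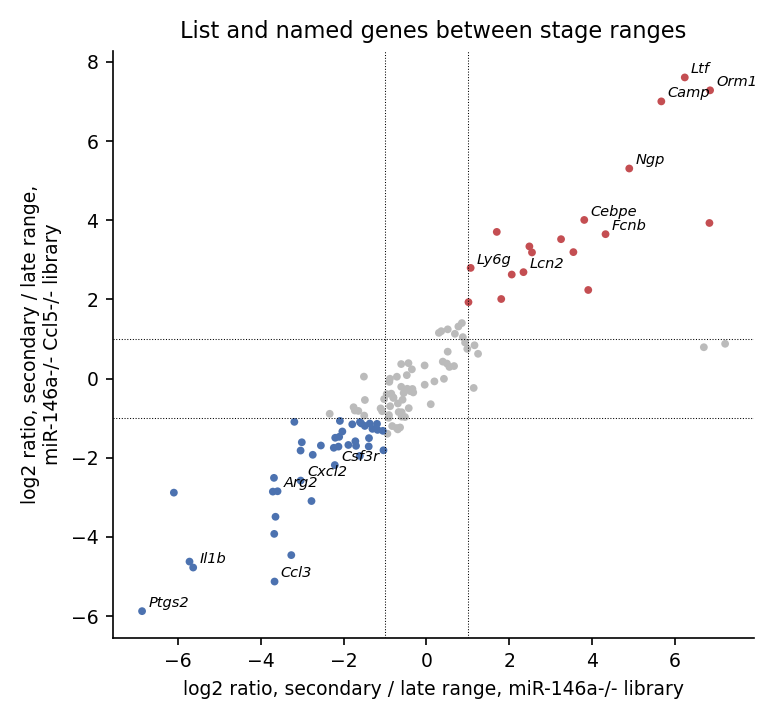
Log2 ratio of secondary granule range members to late neutrophils for list and named genes, miR-146a-/- library across and miR-146a-/- Ccl5-/- library up, with steady genes in red (secondary) and blue (late) and dotted lines at 2-fold. Secondary granule genes lie mostly high in both libraries, and Il1b, Ccl3 and Ptgs2 low in both.

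Most secondary range members held few transcripts of 4 late range genes. Il1b, Cxcl2, Cxcr2 and Csf3r summed to a median of 0.563 and 0.527 UMIs per 1500 in secondary range members of miR-146a-/- and DKO, and 3 of 45 and 2 of 40 reached 5. Of late neutrophils of these libraries 13 of 21 and 19 of 33 reached 5, so the others held little of these genes. Medians of late neutrophils were 42.3, 29.1, 6.27 and 10.4 over the 4 libraries. In thinned cells Il1b was seen in 18 of 18, 12 of 13, 18 of 21 and 22 of 33 late neutrophils, against 9 of 45 and 3 of 40 secondary range members. The medians moved with depth. In late neutrophils of at most 8000 UMIs they were 43.0, 30.7, 21.5 and 19.2, and in deeper knockout ones, rich in dendritic cell transcripts, 3.40 and 1.52.

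**Figure D4:**
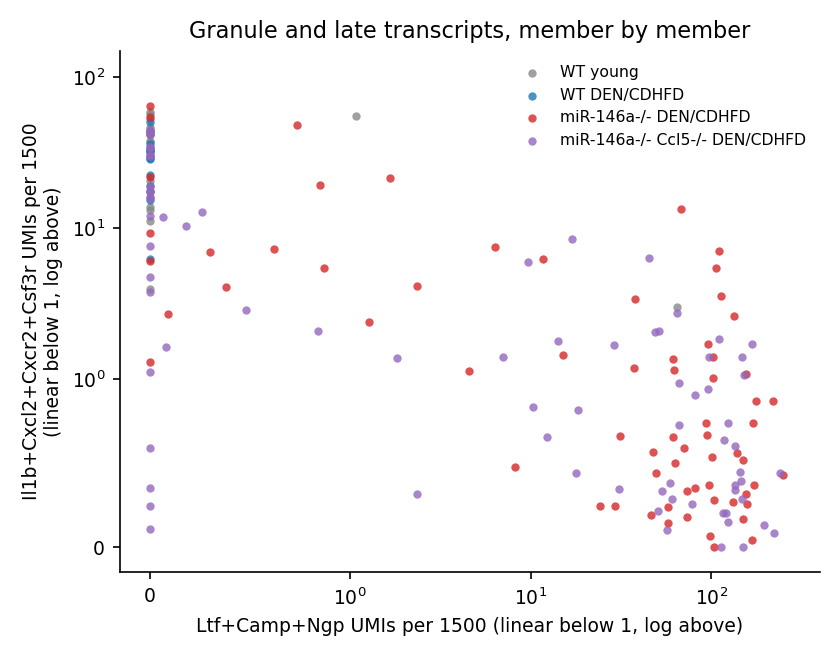
Ltf, Camp and Ngp UMIs per 1500 across against Il1b, Cxcl2, Cxcr2 and Csf3r UMIs per 1500 up in single members with the neutrophil list above the monocyte list, coloured by library, with both axes linear below 1 and log above. Members rich in granule transcripts mostly hold few late transcripts, and most members without granule transcripts hold many.

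Over all members, miR-146a-/- and treated WT differed in stage genes among others. Of 1414 genes tested 149 (10.5%) were at least 2-fold higher and 235 (16.6%) lower. The secondary granule list had 11 of 12 tested genes higher and 0 lower (median log2 ratio 5.92 against -0.18 over all genes). Of this list Ltf, Camp, Ngp and Ly6g were at 0 in treated WT and were tested only through miR-146a-/-. Their calls as higher were thus fixed by the filter, and their part in the count and median is a description. The cytokine list had 0 higher and 11 of 13 lower (median -2.87), and all 8 tested survival genes were lower. In late neutrophils 5 of 10 survival genes were lower and 1 higher, against 8.39% and 15% over all genes. In those of at most 8000 UMIs 1 of 5 was lower and 0 higher, against 18.8% and 13.4%. The split moved with scaling: 38.8% of called genes were higher here, 68.6% with trimmed mean scaling (289 higher, 132 lower), 51.0% without S100a8 and S100a9 in the totals (202 and 194) and 48.3% with the mean over cells (201 and 215). These settings moved the median of all genes by 0.44, 0.16 and 0.12 on the log2 scale. With monocyte-rich members left out of both libraries 203 genes were higher and 206 lower.

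Named genes gave the size of the differences. Lcn2 rose from 361 to 9902 CPM (27.4-fold, 20 to 38.7), Wfdc21 (a whey acidic protein gene of neutrophils) 18.4-fold (11 to 33.7) and Mmp8 12.8-fold (6.18 to 31.9). Il1b was 7.72-fold lower (6.88 to 8.65), Il1r2 (the decoy receptor of interleukin 1) 7.64-fold (5.96 to 9.76), Csf3r 5.15-fold (4.08 to 6.47) and Mcl1 3.32-fold (2.85 to 3.85). The 2 monocyte-rich treated WT members held 19956 and 30233 of the 105171 UMIs of this library and so weighed on these values. With monocyte-rich members left out of both libraries, the log2 ratio went from 4.77 to 4.14 for Lcn2 and from -2.95 to -3.78 for Il1b. Ccl4, a chemokine of activated leukocytes, was 175-fold lower (64.9 to 662), but 36 of the 61 treated WT UMIs lay in 1 member and the log2 ratio went from -7.15 to -5.92 without it. For Cxcl10, 39 of 40 UMIs lay in 1 treated WT member, and the log2 ratio of -5.39 fell to -0.23 without it. C1qa and C1qb, complement genes of macrophages, were 84.0-fold (25.3 to 439) and 40.1-fold lower. Of their treated WT UMIs 19 of 22 and 38 of 49 lay in 1 member, without which the log2 ratio went from -6.01 to -3.64 for C1qa and from -5.24 to -3.57 for C1qb. Irak2, of the miR-146a and NF-kB list, was 3.16-fold lower (1.98 to 4.88). This list had 7 of 10 tested genes lower and 0 higher, against 16.6% and 10.5% over all genes. In late neutrophils 4 of 12 were lower and 1 higher, against 8.39% and 15% over all genes, with a median log2 ratio of -0.54 against 0.10 and Irak2 at -0.53. In those of at most 8000 UMIs 0 of 5 were lower and 2 higher, with a median of -0.53 against -0.18.

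Late neutrophils were then compared alone, so that stage weighed less. Of 1442 genes tested in miR-146a-/- against treated WT, 217 (15%) were higher and 121 (8.39%) lower. Il1b stood at 12981, 8075, 2617 and 2218 CPM in young WT, treated WT, miR-146a-/- and DKO late neutrophils, and Csf3r at 2063, 1801, 597 and 565. Retnlg stood at 5131, 5620, 13748 and 7110 CPM, and Lcn2 at 630, 655, 2833 and 1851. Ly6g was at 0 in both WT libraries and at 315 and 96.8 CPM in the knockouts. Over late neutrophils of all depths, WT libraries were thus higher in Il1b and Csf3r and the knockouts in Lcn2, Ly6g and Retnlg. DKO was below miR-146a-/- in Il1b, Lcn2, Ly6g and Retnlg. For Csf3r the knockouts were close (597 and 565 CPM), and their order turned in late neutrophils of at most 8000 UMIs. It had 125 UMIs in 15 DKO cells and 59 in 9 miR-146a-/- cells, at median depths of 4770 and 6073 UMIs. With monocyte-rich cells included, 112 (7.37%) of 1520 genes were higher and 133 (8.75%) lower.

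**Figure D5:**
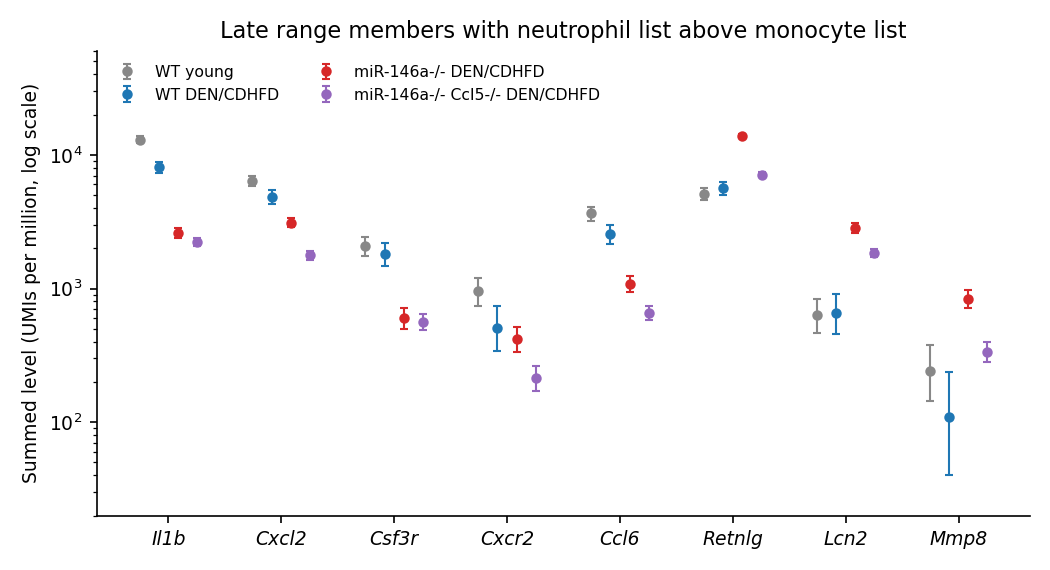
Summed level in CPM (log scale) of 8 named genes in late neutrophils of each library, with 95% counting intervals. Il1b, Cxcl2, Csf3r, Cxcr2 and Ccl6 are highest in young WT, and Retnlg, Lcn2 and Mmp8 highest in miR-146a-/-.

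Depth moved with these values. Late neutrophils of the knockouts had a median of 10338 and 9198 UMIs against 3888 and 3508 in young and treated WT, and 12 of 21 and 18 of 33 had over 8000 UMIs against 1 of 18 and 1 of 13. The deep cells also carried more transcripts of antigen-presenting cells. The 9 dendritic cell genes summed to 7398 and 7906 CPM in deep knockout cells against 202 and 1077 in the others of miR-146a-/- and DKO, with Cd74 the most abundant in each library. Over all late neutrophils the list stood at 1407, 3492, 5727 and 6662 CPM, with 4, 5, 4 and 5 of 9 genes detected and Siglech and Ccr9 at 0 in every library. The monocyte and macrophage list stood at 1640 and 2214 CPM against 364 and 629. The part of depth, or of a neutrophil sharing a droplet with another cell, was not tested.

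Late neutrophils of at most 8000 UMIs, a limit chosen after these values were seen, numbered 17, 12, 9 and 15. Among them Il1b stood at 13904, 10203, 8033 and 7328 CPM, and Cxcl2 at 7217, 5457, 7628 and 4335. The log2 ratio of miR-146a-/- to treated WT was thus -0.34 for Il1b and 0.48 for Cxcl2 among shallow cells, both under 2-fold. Of 426 genes tested there 57 (13.4%) were higher and 80 (18.8%) lower. The dendritic cell list stood at 212, 3417, 202 and 1077 CPM and the monocyte and macrophage list at 440, 593, 364 and 629. Their part in these ratios was not tested.

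Granule genes were among those called in these shallow cells. Lcn2 was 6.82-fold higher in miR-146a-/- than in treated WT (4.41 to 11), Mmp8 8.24-fold (3.57 to 23.4), Wfdc21 8.14-fold (4.37 to 16.8) and Retnlg 2.65-fold (2.32 to 3.03). Single cells weighed here. Without the top member of each gene the log2 ratio went from 2.75 to 2.06 for Lcn2, from 2.95 to 1.73 for Mmp8 and from 1.40 to 0.75 for Retnlg. Of 15 tested receptor and trafficking genes 3 were higher and 1 lower, against 13.4% and 18.8% over all genes. C5ar1 (complement C5a receptor) was 2.22-fold higher (1.42 to 3.57) and Clec4e 2.46-fold (1.56 to 4.0), while the related Clec4d was 3.21-fold lower (1.87 to 5.75). In miR-146a-/- 1 member held 31 of the 75 Clec4e UMIs, without which Clec4e was under 2-fold, and 1 held 16 of the 73 of C5ar1. For C5ar1 and Clec4e it was treated WT that stood low, at 664 and 617 CPM, since young WT had 1410 and 1425 CPM and miR-146a-/- 1477 and 1518. Il1r2 was 4.64-fold lower (2.97 to 7.52), the chemokine gene Ccl6 3.36-fold (2.39 to 4.82), Fos 3.20-fold (2.18 to 4.8), Junb 2.13-fold (1.75 to 2.61) and the protease inhibitor gene Slpi 2.90-fold (2.21 to 3.84). Of the secondary granule list 4 of 5 tested genes were higher, and of the cytokine list 5 of 11 were lower, against 13.4% and 18.8% over all genes. Ngp and Ly6g had 0 UMIs in treated WT and 71 and 27 in miR-146a-/-, with 52 of the 71 in 1 member. They were tested only through miR-146a-/-, so their calls as higher were fixed by the filter.

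Over all members the DKO and miR-146a-/- libraries were at least 2-fold apart in few genes. Of 1481 genes tested in DKO against miR-146a-/-, 16 (1.08%) were higher and 7 (0.473%) lower. Ngp was at a log2 ratio of -0.47, Camp of -0.27, Ltf of -0.54 and Il1b of 0.37, all under 2-fold. Of the secondary granule list 1 of 12 tested genes was lower and 0 higher, that being Olfm4 (olfactomedin 4, 2.06-fold, 1.63 to 2.63), whose log2 ratio of -1.04 shrank to -0.15 without 1 miR-146a-/- member. Saa3, an acute-phase gene, was 3.0-fold higher (2.67 to 3.37), Clec12a, an inhibitory lectin of myeloid cells, 3.64-fold (2.73 to 4.91), and Ccl3 2.45-fold (1.81 to 3.36). Spp1 (osteopontin) was 39.9-fold higher (15.3 to 148), with 107 of 192 UMIs in 1 DKO member and a log2 ratio of 5.17 that fell to 4.02 without it. The interferon-stimulated gene Isg15 was 2.86-fold lower (2.09 to 3.96), with 52 of 138 UMIs in 1 miR-146a-/- member and a log2 ratio of -1.51 that shrank to -0.85 without it.

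Within late neutrophils more genes passed 2-fold between the knockouts, from fewer cells. There 96 (5.68%) of 1689 genes were higher in DKO and 56 (3.32%) lower, against 30 (1.82%) and 24 (1.45%) of 1650 with monocyte-rich cells included. In those of at most 8000 UMIs, 92 (16.1%) of 571 were higher and 39 (6.83%) lower, from 15 and 9 cells. Counting noise grows as cells fall, and its part in these shares was not tested. Among these Ly6g was 9.77-fold lower in DKO, Mmp8 12.0-fold and Lcn2 3.13-fold. Of these 3, the Mmp8 log2 ratio of -3.48 went to -2.25, that of Ly6g from -3.11 to -2.39 and that of Lcn2 from -1.64 to -0.96 when the top miR-146a-/- member was left out. Il1r2 was 2.57-fold higher in DKO.

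Treated against young WT compared few cells. Over all members 208 of 965 genes (21.6%) were higher and 109 (11.3%) lower, and 53.2% of called genes were higher with trimmed mean scaling against 65.6% here (shift of the median -0.15). The 2 monocyte-rich members of treated WT bore on this split. In late neutrophils only 36 of 625 genes (5.76%) were higher and 56 (8.96%) lower. There Il1b was at a log2 ratio of -0.68, Cxcl2 of -0.39, Retnlg of 0.13 and Csf3r of -0.20, none of them called. Nfkbiz, an NF-kB cofactor gene, was 3.25-fold lower in treated WT (1.90 to 5.87) and Socs3, a brake on cytokine signalling, 2.10-fold (1.12 to 4.19). In those of at most 8000 UMIs 30 of 548 (5.47%) were higher and 48 (8.76%) lower, with Fos 2.07-fold lower (1.65 to 2.61). Late neutrophils of young and treated WT liver were therefore under 2-fold apart in most genes tested. With monocyte-rich cells included, 177 (19%) of 932 genes were higher and 88 (9.44%) lower.

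Free RNA in droplets was gauged in B cells (kept cells with at least 5 UMIs of Cd79a, Cd79b and Ms4a1 and 0 of Cd3), which should lack these transcripts. Of 1133, 668, 471 and 722 B cells, at median depths of 5686, 6976, 7207 and 6939 UMIs, 0.0883%, 0%, 2.55% and 0.554% held a UMI of Ngp and 0.265%, 0.299%, 2.97% and 1.39% a UMI of S100a8. In miR-146a-/-, 3 of the B cells met the member rule, with 884, 2443 and 3272 UMIs of S100a8 and S100a9, so these droplets held transcripts of both cell types. Of the 468 others 1.92% held a UMI of Ngp and 2.35% of S100a8, at most 1 UMI per cell for either. In DKO no B cell was a member, and the highest had 33 UMIs of S100a8. Secondary range members, at median depths of 11395, 16775 and 17282 UMIs in young WT, miR-146a-/- and DKO, hold at least 15 of 1500 UMIs of Ltf, Camp and Ngp by the rule. For Il1b the B cell shares were 0.971%, 2.54%, 2.12% and 3.74%.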

How the data were processed

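The deposited matrices hold counts, raw UMI counts per gene and cell, of 4 libraries made by 10x 5' chemistry from CD45+ liver cells sorted by the authors. Per the submitters' processing notes they came from Cell Ranger 7.0.1 on mm10. Only droplets called as cells are in the files, no further filter had been applied, and doublets were limited here only by the upper limit on detected genes. Members, stages and lists were chosen with earlier results of these data known. Medians of 6782, 8210, 7910 and 7558 UMIs per kept cell were found in young WT, treated WT, miR-146a-/- and DKO. UMIs were summed over members of a library and scaled to CPM. Genes that reached 100 CPM and 20 UMIs in either library of a pair were tested and called at 2-fold. For log2 ratios 0.5 counts were added, scaled by the UMI totals compared. Log2 ratios over 0 UMIs depend on this addition. With 1 library per group no test was made. Intervals are exact Poisson, exact binomial (shares) or Newcombe (differences of shares). Named genes were those of the rule and of 14 fixed lists and the 10 largest changes each way per comparison in at least 10% of members of the higher group. Alternatives changed filters, limits, thinning, scaling and members used. Python 3.11.15, numpy 2.4.6, scipy 1.17.1, pandas 2.3.3, matplotlib 3.10.9, R 4.3.3 and edgeR 4.0.16 (trimmed mean scaling) were used. Sequences came from RefSeq tables and gene positions from a GENCODE annotation. Results of some list genes are not reported here.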

Additional observations from a re-analysis of the deposited data

Results flagged for a closer look

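The rule left out cells with many S100a8 and S100a9 UMIs and a Cd3 UMI. They were 34 kept cells of miR-146a-/- (0.435% of kept cells) and 25 of DKO (0.254%), against 7 in each WT library, so a sizeable number of S100a8 and S100a9 rich cells stood outside the members in the knockouts. Of these, 13 and 15 were in the secondary granule range (0 in young WT and 1 in treated WT), and 4 and 7 had exactly 1 Cd3 UMI. Their make-up was not tested.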

How the results depend on the processing

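The named settings moved or reversed the following, and the cause was not tested in any case. Shares of members first. With 0 or 1 UMI of other cells' markers allowed, shares were 0.639% in miR-146a-/- and 0.619% in DKO, and miR-146a-/- minus treated WT was 0.519 points. With S100a8 and S100a9 at 200 UMIs or more, young WT was at 0.107%. Without the Cd3 condition miR-146a-/- was at 1.39%, DKO at 1.14%, and the difference from treated WT was 1.13 points.

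Genes called, higher then lower. With trimmed mean scaling miR-146a-/- against treated WT had 289 and 132. With the mean over cells treated against young WT had 108 and 67. With a minimum of 10 CPM and none on UMIs, treated against young WT had 2418 and 1654, miR-146a-/- against treated WT 1220 and 1807, and DKO against miR-146a-/- 369 and 148. With members whose neutrophil list exceeded the monocyte list, treated against young WT had 47 and 71, and DKO had 27 higher. With late range members only, DKO had 30 and 24 and miR-146a-/- 133 lower. With late neutrophils only, DKO had 96 and 56, treated WT 36 and 56, and miR-146a-/- 121 lower. With late neutrophils of at most 8000 UMIs, DKO had 92 and 39, treated WT 30 and 48, and miR-146a-/- 57 and 80.

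Log2 ratios that changed sign, treated against young WT. With late range members only: Cd177 0.43. With late neutrophils: Cd177 1.22, Cybb -0.47, Lcn2 0.0558, Retnlg 0.13. With late neutrophils of at most 8000 UMIs: Cd177 1.40, Csf1r -0.19, Cybb -4.25, Lyz2 -0.45, Pot1b -1.40, Retnlg 0.44. With the neutrophil list above the monocyte list: Cybb -0.71, Lyz2 -0.0822. Without the 1 member with most UMIs of the gene: AW112010 1.98, Ccl5 1.09, Cd177 0.43, Cxcl10 -3.25.

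Those of miR-146a-/- against treated WT. With late range members only: Cebpe -1.02, Ifitm1 0.18. With late neutrophils: Bcl2a1b 0.12, Cebpe -1.57, Ifitm1 0.33, Itgam -0.26, Ube2c -2.55. With late neutrophils of at most 8000 UMIs: Ccl3 0.31, Cd274 0.10, Cebpe -2.06, Csf1 0.0768, Cxcl2 0.48, Gadd45b 0.17, Hp -0.0846, Icam1 0.42, Ifitm1 1.39, Notch2 0.11, Ptafr 0.14, Socs3 0.38, Tnf 0.85, Ube2c -1.67.

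Those of DKO against miR-146a-/-. With late neutrophils: Prtn3 4.04. Without the 1 member with most UMIs of the gene: Elane 0.10, Mpo 3.38, Prtn3 0.24. Between stages, Fn1 was at 0.0164 (pooled) with late neutrophils as the late range.

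Limits: each group is 1 library, so no difference between groups can be told apart from a difference between libraries or mice. Members of WT liver are few, stage ranges rest on 3 and 4 genes, and RNA was measured, not protein. Droplets that held a neutrophil with another cell below the limit on genes stay among the members.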

Other observations

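Some late neutrophils of knockout liver held transcripts of the secondary granule stage. Ngp had 249 UMIs in 14 of 21 and 309 UMIs in 11 of 33 such cells of miR-146a-/- and DKO liver, against 3 UMIs in 1 of 18 in young WT and 0 in 13 of treated WT. After thinning it was seen in 8 of 21 and 6 of 33 knockout cells against 1 of 18 in young WT and 0 of 13 in treated WT. The top member held 82 of the 249 and 93 of the 309 UMIs. Cxcr4, the receptor that holds neutrophils in bone marrow, stood at 607 CPM (410 to 867) in miR-146a-/- late neutrophils of at most 8000 UMIs and at 119 CPM (38.5 to 277) in treated WT. The log2 ratio of 2.25 went to 1.46 without the 1 miR-146a-/- member that held 15 of the 30 UMIs. Young WT stood at 288 CPM (173 to 450) and DKO at 350 CPM (226 to 516), so treated WT was the lowest library. In these shallow cells the dendritic cell list stood at 212, 3417, 202 and 1077 CPM in young WT, treated WT, miR-146a-/- and DKO, and the part of such transcripts was not tested.

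In thinned cells Chil3 was seen in 6 of 8 and 10 of 12 monocyte-rich members of miR-146a-/- and DKO liver, against 3 of 21 and 8 of 33 late neutrophils, so it marked both the secondary granule range and the monocyte-rich members.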
